A study of Mus musculus with 7 samples.

Results

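The genes described here are 34 genes of mitosis and chromosome segregation, taken by name from a list and kept if their mean normalized count over the libraries was at least 10. All 34 of the 34 listed genes met that minimum, of 12963 that did so in a table of 16476 genes, and the lowest mean among them was 74.1 (Ttk). Messenger RNA was sequenced from bronchoalveolar lavage cells, the cells washed out of the airspaces of the lung, of C57BL/6 mice. Both groups had received lipopolysaccharide, a component of the bacterial cell wall, into the trachea 3 days earlier, and neutrophils were removed from the lavage with antibodies. The control group (genotype LysM Cre, 4 libraries) carried Cre recombinase under the lysozyme M promoter, which is active in macrophages and neutrophils. By its label the knockout group (genotype Netrin1loxp/loxp LysM Cre, 3 libraries) carried the same Cre and loxP-flanked alleles of Ntn1, the gene of the guidance protein netrin-1. Cells without lysozyme M activity keep Ntn1 in this model, and no age or sex of the mice is stated in the labels. Whether the libraries of a group are from separate mice is not in the labels, and p-values measure the spread between libraries, which may be technical.

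Mitosis is driven by Cdk1 bound to cyclins A and B, which makes chromosomes condense and a spindle form. Kinetochores tie chromosomes to spindle fibres, and the spindle checkpoint holds back the anaphase-promoting complex until every chromosome is attached. Most of these genes are silent in resting cells and are transcribed together in G2 and mitosis through promoter elements bound by the MuvB, B-Myb and FoxM1 proteins, and in inflamed airspaces lymphocytes and macrophages are among the cells that can divide.

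The whole reads behind the deposited values came to between 9903284 and 13353733 per library, and the 34 genes took between 0.102% and 0.175% of them. Ntn1 had 1, 4, 9 and 3 reads in the controls and 1, 0 and 1 in the knockouts (in the order of replicate number, as for all values by library), too few to check the genotype labels. Lyz2, the lysozyme M gene itself, split the controls. Its normalized count was 76927 and 118781 in control replicates 1 and 4 and 770.1 and 721 in control replicates 2 and 3, against 910 to 1052 in knockouts. The labels give every control the same genotype, and whether all libraries carry the same Cre was not tested. Results are therefore also given without each of these pairs of controls.

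The promoters of the genes that rose are shown because most of the promoters matched hold short elements near the start site. The 34 genes were taken by name, but most such genes are known to be transcribed through elements of this kind. A high share among them is therefore not an independent result. RefSeq promoters (GRCm38.p6, 250 bases before to 50 after the start) were matched by symbol to 29 of the 34 genes, with 30 promoters; Aurkb, Ccna2, Incenp, Kif20a and Tpx2 had no match. Printed are 6 of them, the called genes with the smallest p that hold the element. Each runs from 150 bases before to 50 after the start, on the gene's own strand. A rule that left out genes of 1 chromosome removed none of the matched genes. Capitals mark the cell cycle homology region (CHR: TTTGAA or TTCGAA) and the CCAAT box, on either strand, so that TTCAAA and ATTGG are the same elements read from the other strand. The regions are chr5:30666736-30666935 (plus strand) for Cenpa, chr2:164769779-164769978 (plus) for Ube2c, chr4:118437294-118437493 (minus) for Cdc20, chr17:71526808-71527007 (minus) for Ndc80, chr6:124830026-124830225 (plus) for Cdca3 and chr2:129297163-129297362 (minus) for Ckap2l.
Cenpa: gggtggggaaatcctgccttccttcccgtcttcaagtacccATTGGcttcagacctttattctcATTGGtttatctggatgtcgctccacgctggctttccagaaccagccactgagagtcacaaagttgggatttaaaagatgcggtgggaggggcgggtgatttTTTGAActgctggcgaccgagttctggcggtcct
Ube2c: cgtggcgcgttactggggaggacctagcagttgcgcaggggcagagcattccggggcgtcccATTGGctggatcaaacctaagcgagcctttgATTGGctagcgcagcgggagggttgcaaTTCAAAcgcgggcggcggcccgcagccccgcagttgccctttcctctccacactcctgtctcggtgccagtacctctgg
Cdc20: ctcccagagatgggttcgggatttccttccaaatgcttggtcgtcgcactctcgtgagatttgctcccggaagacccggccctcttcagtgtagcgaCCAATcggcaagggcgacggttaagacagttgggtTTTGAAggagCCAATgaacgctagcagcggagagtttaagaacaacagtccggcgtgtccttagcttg
Ndc80: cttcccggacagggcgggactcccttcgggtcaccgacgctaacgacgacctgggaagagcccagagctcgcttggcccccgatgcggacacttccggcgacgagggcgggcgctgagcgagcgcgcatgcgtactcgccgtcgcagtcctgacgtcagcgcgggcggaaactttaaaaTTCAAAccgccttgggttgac
Cdca3: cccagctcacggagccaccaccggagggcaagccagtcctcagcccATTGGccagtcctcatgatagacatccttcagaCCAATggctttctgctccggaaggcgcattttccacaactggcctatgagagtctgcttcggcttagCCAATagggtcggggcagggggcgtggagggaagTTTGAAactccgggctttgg
Ckap2l: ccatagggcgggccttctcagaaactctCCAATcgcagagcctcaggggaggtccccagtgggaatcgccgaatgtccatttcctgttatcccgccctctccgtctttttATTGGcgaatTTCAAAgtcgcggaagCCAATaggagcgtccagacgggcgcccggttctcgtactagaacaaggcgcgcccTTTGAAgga
Positions count from 1 at the start and from -1 before it. In Cenpa the CHR begins at 17, downstream of CCAAT boxes at -109 and -86. In Cdc20 it begins at -18 and lies between CCAAT boxes at -53 and -8. Ndc80 has a CHR at 30 and no CCAAT letters in this window.

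A CHR was found in 24 of the 30 promoters (80%, exact 95% interval 61.4 to 92.3), against 19.2% of all 32851 promoters in the table. A CCAAT box was found in 23 of 30 (76.7%, interval 57.7 to 90.1) against 37.4%, and both together in 21 of 30 (70%) against 7.52%. Birc5, Mad2l1, Nuf2 and Nusap1 had neither. Within 50 bases on either side of the start, a window chosen after seeing these results, 22 of 30 (73.3%) had a CHR against 5.31% of all promoters. The E2F letters searched (TTTCGCGC, TTTGGCGC, TTTCCCGC or TTTGCCGC, either strand) were in 1 of 30, that of Cdk1, against 2.26% of all. The CHR was present in 10 of 11 promoters of genes that rose in knockouts and in 14 of 19 promoters of genes that did not pass the test, and the exact intervals of these shares overlap (58.7 to 99.8 and 48.8 to 90.9). Mki67 had its CHR letters at -116 and -98, farther from the start than those of the printed genes. The 2 promoters of Prc1 overlap (chr7:80294201-80294500 and chr7:80294226-80294525) and share the same CHR and CCAAT letters, so these letters count for both promoters. All of these are letter matches, described without any test of binding. The intervals cover counting error only and take promoters as independent.

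In knockout lavage cells 14 of the 34 mitosis genes rose and none fell (limma on log2(normalized count + 1), adjusted p under 0.05 over all genes), where 10.4% of all genes tested rose and 11.3% fell. The median log2 fold change was 0.55, against 0.01 over all genes tested, and 33 of 34 values were above 0. At an unadjusted p under 0.05, 24 were higher (18.1% of all genes were) and 0 lower. edgeR on recovered reads called 15 higher (10.5% of all genes) and DESeq2 18 (10.9%), and neither called any lower (11.5% and 12.4% of all genes). By the adjusted p of the authors' deposited table, 17 of the 34 were higher and 0 lower at the same threshold. Of all genes with a value there, 8.92% were higher and 9.92% lower. The 3 that passed there and not in the limma fit were Top2a, Birc5 and Kif23.

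**Figure D1:**
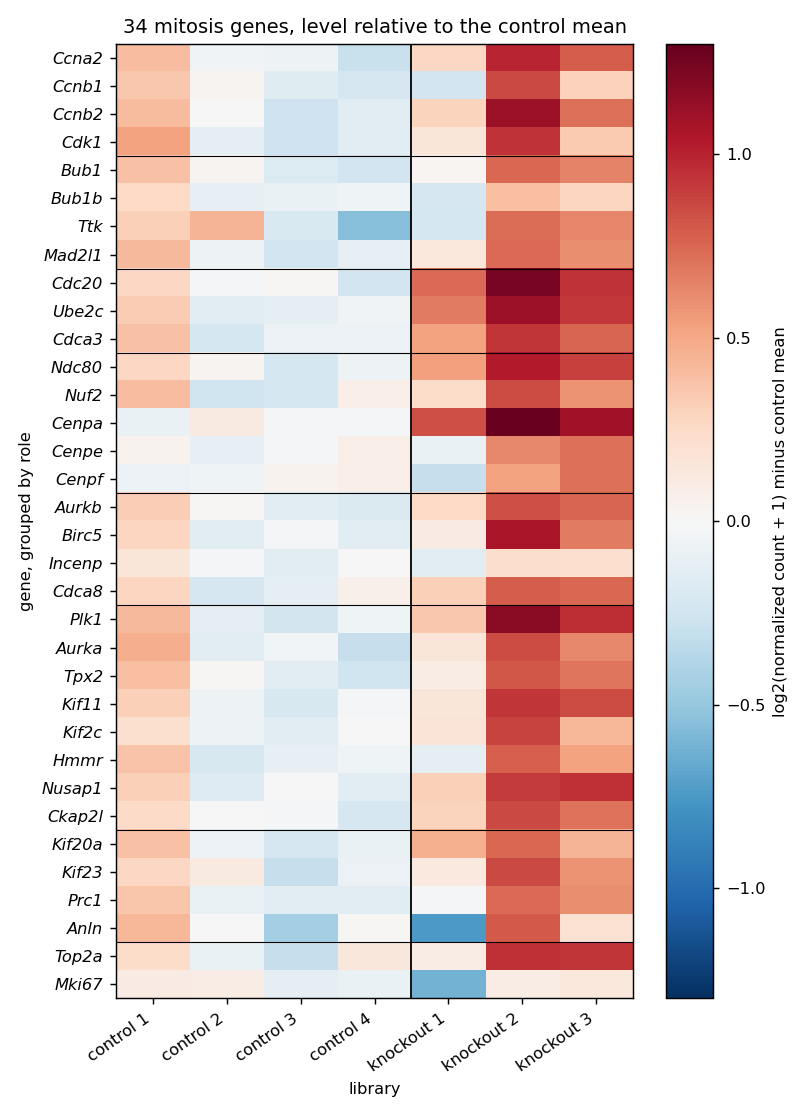
Level of each of the 34 genes (rows, grouped by role) in each library (columns), as log2(normalized count + 1) minus the mean of the 4 controls. Knockout replicates 2 and 3 are red in nearly every row, while control replicate 1 is above the other controls in 30 rows, and knockout replicate 1 is below every control in 6.

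The libraries of each group were not alike. Knockout replicate 2 lay above every control for 33 of the 34 genes and knockout replicate 3 for 31. Knockout replicate 1 did so for 9 and lay below every control for 6, namely Ccnb1, Bub1b, Cenpf, Incenp, Anln and Mki67. Control replicate 1 was the highest control for 30 genes, and knockout replicate 1 the lowest knockout for 33. Summed over the 34 genes, the controls had normalized counts of 15699, 13443, 12131 and 13039 and the knockouts 12618, 20664 and 19510.0. All knockouts were above all controls for 9 genes (26.5%), where 17.4% of all genes tested were, and below all controls for 0, where 16.3% were. RNA from lavage cells is a mixture, so a larger share of dividing cells and more transcript per dividing cell cannot be told apart.

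**Figure D2:**
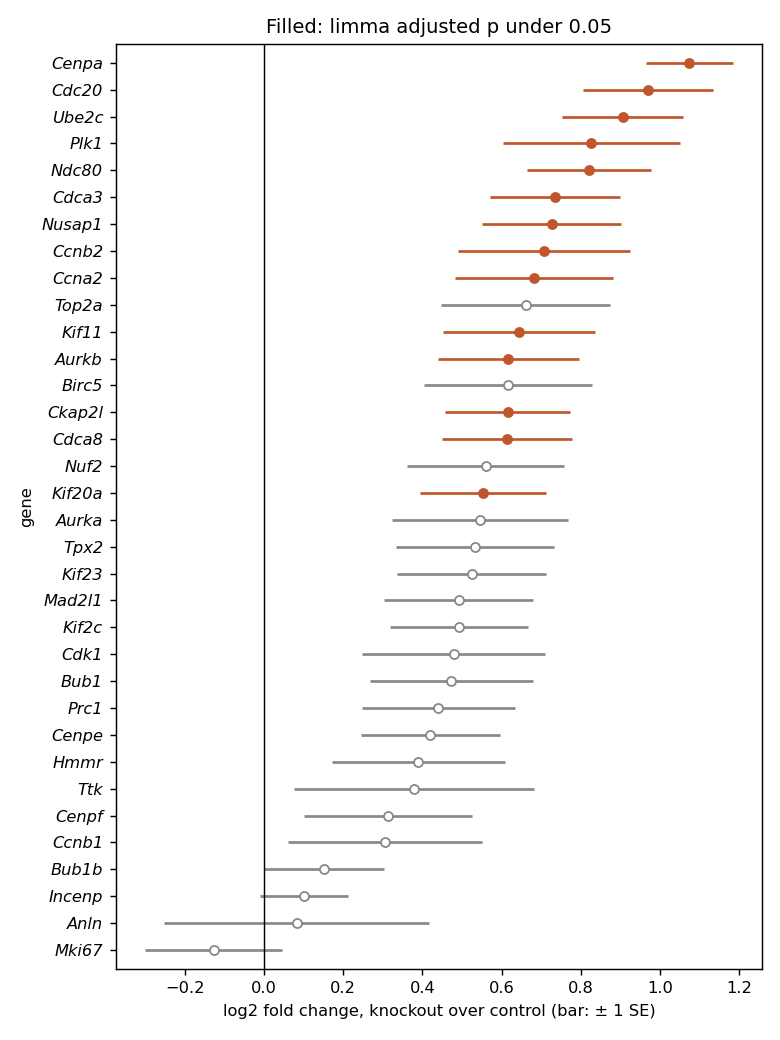
Log2 fold change of each of the 34 genes (knockout over control, points) with 1 SE on each side (bars), in order of size. Filled points passed at an adjusted p under 0.05; they run from 0.55 (Kif20a) to 1.07 (Cenpa), and Mki67 at -0.13 is the lowest of all.

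The 3 genes grouped here under exit from mitosis (Cdc20, Ube2c and Cdca3) all rose, with no overlap between knockouts and controls. Over all genes tested 10.4% rose and 17.4% had every knockout above every control, the shares beside this and each role below. In the wider list of entry and exit control, described further on, 4 of 27 rose. Cdc20, which activates the anaphase-promoting complex (ENSMUSG00000006398, GRCm38 chromosome 4, 118432901 to 118437352), stood at normalized counts of 97.5, 79.3, 81.4 and 67.7 in controls and 135, 191 and 156 in knockouts. Its mean went from 81.5 ± 12.3 (SD, n = 4) to 161 ± 28.5 (SD, n = 3) (log2 fold change 0.97, SE 0.16, adjusted p = 0.00515). Ube2c, the ubiquitin-conjugating enzyme of that complex, stood at 169, 120.4, 122 and 129 in controls and 215, 291 and 254 in knockouts (log2 fold change 0.91, SE 0.15, adjusted p = 0.00503). The lowest knockout thus exceeded the highest control for both genes. Of the exon bases of Ube2c 22.8% overlap Tnnc2 on the other strand, and the strand setting of the counting is not given. Cdca3 is known as a trigger of mitotic entry and is itself degraded at exit, so it fits this heading less well. It stood at 175, 114, 127 and 127 in controls and 192, 256 and 226 in knockouts (log2 fold change 0.73, SE 0.16, adjusted p = 0.0153).

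At the kinetochore and centromere 2 of 5 genes rose. Cenpa, the histone H3 variant that marks centromeres (ENSMUSG00000029177, chromosome 5, 30666777 to 30674830), had the largest change of the 34. Its normalized counts were 274, 315, 288 and 286 in controls and 521, 711 and 619.7 in knockouts, a rise from 291 ± 17.3 (SD, n = 4) to 617 ± 94.7 (SD, n = 3). On the log2 scale this is 1.07 with an SE of 0.11 (adjusted p = 0.000754), and the controls lay within a narrow band well under the lowest knockout. Ndc80, whose complex binds spindle fibres (chromosome 17, 71496100 to 71526857), stood at 145, 123, 103 and 115 in controls and 175, 248 and 225 in knockouts (log2 fold change 0.82, SE 0.16, adjusted p = 0.00836). Its partner Nuf2 had a log2 fold change of 0.56 (adjusted p = 0.0748), and the kinetochore motor Cenpe and the large coiled-coil protein Cenpf had 0.42 (adjusted p = 0.119) and 0.31 (adjusted p = 0.318).

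**Figure D3:**
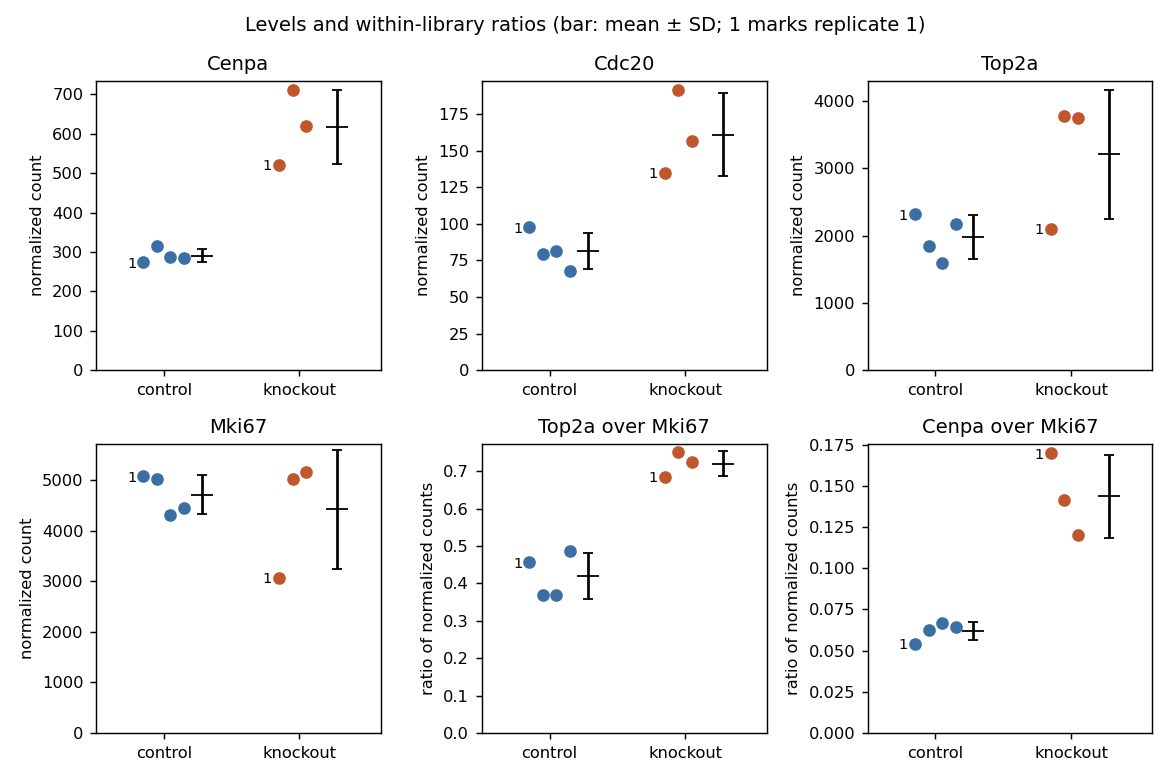
Normalized counts of Cenpa, Cdc20, Top2a and Mki67, and the ratios of Top2a and Cenpa to Mki67 within each library (points: libraries; bars: mean ± SD of the group). The groups overlap for Top2a and Mki67, and do not overlap for Cenpa, Cdc20 and both ratios.

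Among the mitotic cyclins and their kinase 2 of 4 rose. Cyclin A2 (Ccna2), which acts in S phase and at mitotic entry, stood at 383, 279.9, 275 and 237 in controls and 348, 577 and 499.6 in knockouts (log2 fold change 0.68, SE 0.20, adjusted p = 0.0405). Cyclin B2 (Ccnb2) stood at 194, 145, 120.4 and 132 in controls and 177, 317 and 238 in knockouts (log2 fold change 0.71, SE 0.22, adjusted p = 0.0482). For both, knockout replicate 1 lay within the range of the controls. Cyclin B1 (Ccnb1), its close relative, had a log2 fold change of 0.30 (adjusted p = 0.401) and Cdk1, their kinase, 0.48 (adjusted p = 0.169). The difference between the 2 cyclins B was not tested.

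Of 4 genes of the spindle assembly checkpoint 0 passed by limma, edgeR or DESeq2, and 2 had an unadjusted p under 0.05 in limma. These 4 genes hold back anaphase: the kinases Bub1 (log2 fold change 0.47) and Ttk (0.38), the pseudokinase Bub1b (0.15) and the Cdc20 inhibitor Mad2l1 (0.49). Bub1b stood at 818, 633, 642 and 657 in controls and 589, 896 and 829 in knockouts (adjusted p = 0.506), so that 1 knockout was below and 2 above every control.

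Of the chromosomal passenger complex, which corrects wrong attachments and later guides cytokinesis, 2 of 4 rose. Its kinase Aurkb stood at 156, 126, 112 and 109 in controls and 149, 224 and 211 in knockouts (log2 fold change 0.62, SE 0.18, adjusted p = 0.0387). The borealin gene Cdca8 stood at 146, 103, 109.7 and 125 in controls and 149, 208 and 201 in knockouts (log2 fold change 0.61, SE 0.16, adjusted p = 0.0296). Knockout replicate 1 was close to control replicate 1 for both. The scaffold Incenp stood at 605, 531, 493 and 542 in controls and 491, 633 and 629.6 in knockouts (log2 fold change 0.10, SE 0.11, adjusted p = 0.55). Birc5 (survivin) had a log2 fold change of 0.62 (adjusted p = 0.0687).

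Of 8 genes of spindle kinases and spindle assembly 4 rose. Plk1, the polo-like kinase that acts from mitotic entry to cytokinesis, stood at 114, 78.3, 71.7 and 81.5 in controls and 108, 192 and 166 in knockouts (log2 fold change 0.83, SE 0.22, adjusted p = 0.0312). Kif11, the motor that pushes spindle poles apart, stood at 462, 355, 322 and 366 in controls and 417, 709.6 and 671 in knockouts (log2 fold change 0.64, SE 0.19, adjusted p = 0.0436). In both, knockout replicate 1 was under control replicate 1. The spindle-associated proteins Nusap1 and Ckap2l showed no overlap, by a narrow margin. Nusap1 stood at 344, 247, 277 and 251 in controls and 345, 522 and 538 in knockouts (log2 fold change 0.73, SE 0.18, adjusted p = 0.0208). Ckap2l stood at 202, 169, 168 and 147 in controls and 208, 309.6 and 278 in knockouts (log2 fold change 0.62, SE 0.16, adjusted p = 0.0254). The kinase Aurka, its activator Tpx2, the depolymerizing kinesin Kif2c and the hyaluronan and microtubule binding protein Hmmr did not pass, with log2 fold changes of 0.54, 0.53, 0.49 and 0.39.

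Of 4 genes of the central spindle and cytokinesis 1 rose. Kif20a, a motor of the central spindle, stood at 149, 109, 98.2 and 108 in controls and 158, 193 and 156 in knockouts (log2 fold change 0.55, SE 0.16, adjusted p = 0.0393), with no overlap. Of its exon bases 29.3% overlap Cdc23 on the other strand. Anln (anillin), which organizes the contractile ring, stood at 124, 363 and 240.3 in knockouts against 281, 208, 154 and 211 in controls (log2 fold change 0.08, SE 0.33, adjusted p = 0.882). Kif23 and Prc1, which bundle the central spindle, had log2 fold changes of 0.52 and 0.44 (adjusted p = 0.0773 and 0.137). The 15 genes given here without a value for each library had log2 fold changes of 0.30 to 0.62 and adjusted p of 0.0687 to 0.401.

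The 2 genes of mitotic chromosomes, both standard markers of proliferating cells, had log2 fold changes of opposite sign, and neither passed in the limma fit. Top2a, the topoisomerase that untangles sister chromatids, stood at 2319.7, 1854, 1589 and 2168 in controls and 2104, 3781 and 3749.9 in knockouts (log2 fold change 0.66, SE 0.21, adjusted p = 0.0575). Mki67, which coats mitotic chromosomes and encodes the Ki-67 antigen, stood at 5076, 5019, 4316 and 4443 in controls and 3068, 5029 and 5167 in knockouts (log2 fold change -0.13, SE 0.17, adjusted p = 0.629). Mki67 had the highest level per length of the 34, a normalized count of 468 per kilobase of exon in controls, followed by Top2a at 220.0 and Bub1b at 161, and the lowest was Ttk at 13.3.

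Relative to Mki67, Top2a and Cenpa were higher in every knockout library than in any control, knockout replicate 1 included. The ratio of the Top2a count to the Mki67 count was 0.457, 0.369, 0.368 and 0.488 in controls and 0.686, 0.752 and 0.726 in knockouts, a log2 difference of 0.79. The ratio of Cenpa to Mki67 was 0.0540, 0.0628, 0.0666 and 0.0644 in controls and 0.170, 0.141 and 0.120 in knockouts, a log2 difference of 1.20. Neither ratio overlapped between groups. The pairs were chosen after their values were seen, so the ratios are a description with no test. Mki67 made up 32.3% to 37.3% of the summed count of the 34 genes in controls and 24.3% to 26.5% in knockouts. These ratios and shares do not show which of the genes changed.

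Transcript length moved with these values. The 17 genes with shorter exon length (up to 4363 bases) had a median log2 fold change of 0.62 and 10 of them rose, while the 17 longer ones (from 4677 bases) had a median of 0.49 and 4 rose. Over the 34 genes Spearman's rho of log2 fold change and length was -0.49, a description across genes that share libraries and are not replicates. Over all genes tested the median log2 fold change went from 0.13 in the shortest sixth to -0.13 in the longest. With the length trend removed from each library, a choice made after seeing the data, 13 of the 34 rose, 12 of them among the 14. The median log2 fold change over all 34 was then 0.57. Top2a then passed (log2 fold change 0.74, adjusted p = 0.033) and Ccnb2 and Aurkb did not (adjusted p = 0.0805 and 0.0542), and Mki67 stood at -0.03 (adjusted p = 0.915).

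**Figure D4:**
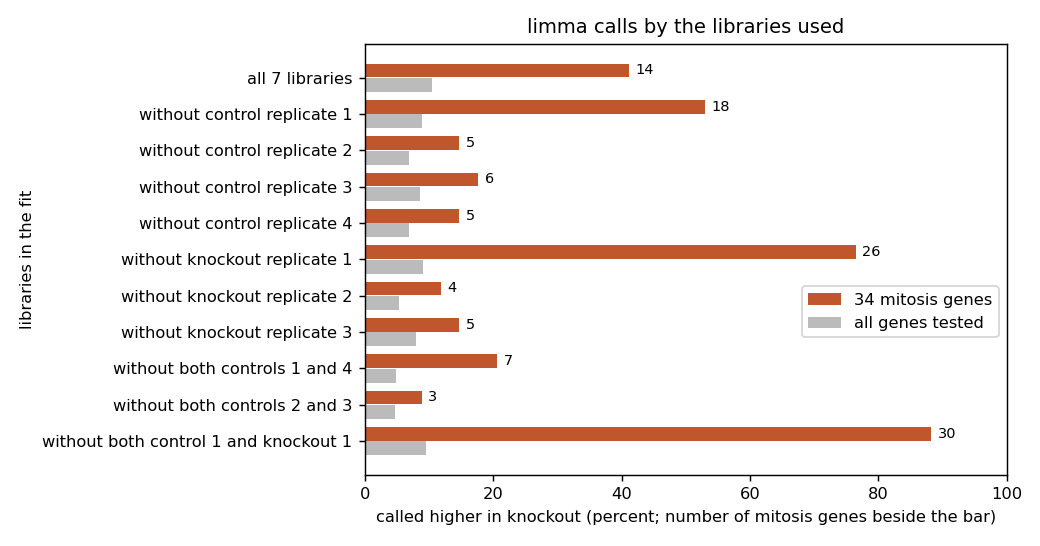
Share of the 34 genes (orange) and of all genes tested (grey) called higher by limma, with all libraries and with libraries left out; the number of mitosis genes is beside each bar. The count runs from 3 without control replicates 2 and 3 to 30 without control replicate 1 and knockout replicate 1.

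The number of genes that rose depended on single libraries. It was 26 without knockout replicate 1, where 9.05% of all genes rose, and 18 without control replicate 1 (8.88%). It was 4 without knockout replicate 2 (5.35% of all genes rose) and 5 without knockout replicate 3 (7.93%). It was 5, 6 and 5 without control replicates 2, 3 and 4, where 6.89%, 8.5% and 6.9% of all genes rose. It was 7 when control replicates 1 and 4, which had high Lyz2, were both left out (4.8% of all genes), and 3 when control replicates 2 and 3 were (4.74%). Without both control replicate 1 and knockout replicate 1, a choice made after seeing the data, it was 30 (9.47% of all genes), with a median log2 fold change of 0.86. Cenpa, Cdc20, Ube2c and Ndc80 passed with any 1 library left out, and Cdca3 in 6 of 7 such fits.

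Over 4 further lists of mitosis genes 26 of 114 tested genes rose (22.8%) and 1 fell, with a median log2 fold change of 0.38. Of all genes tested 10.4% rose and 11.3% fell. The medians by list were 0.40 (kinetochore and checkpoint), 0.51 (kinesins, spindle and cytokinesis), 0.13 (entry and exit control) and 0.21 (condensin and cohesin). Of 38 kinetochore and checkpoint genes 8 rose, among them Cenpq, of the inner kinetochore, with a log2 rise of 0.57, SE 0.09 and adjusted p = 0.00493, Pmf1, a subunit of the Mis12 complex, by 0.47 and Spc24, the partner of Ndc80, by 1.13. Of 29 genes of kinesins, spindle and cytokinesis 8 rose, among them Racgap1, the partner of Kif23, by 0.72 (SE 0.09, adjusted p = 0.00176), Kif18b by 1.00 and Dlgap5 by 0.66. Of 27 genes of entry and exit control 4 rose, a share near the 10.4% of all genes. These included Fbxo5, an inhibitor of the anaphase-promoting complex, by 0.83 and Gtse1 by 0.72. Also included was Ube2s, which extends ubiquitin chains for that complex, by 0.52. Of 20 condensin and cohesin genes 6 rose, among them the condensin subunits Ncaph2 (0.29), Ncaph (0.69) and Ncapd2 (0.57). Espl1, the separase that cuts cohesin at anaphase, fell from 424 ± 52.4 (SD, n = 4) to 284 ± 46.6 (SD, n = 3) (log2 fold change -0.58, SE 0.14, adjusted p = 0.0186).

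**Figure D5:**
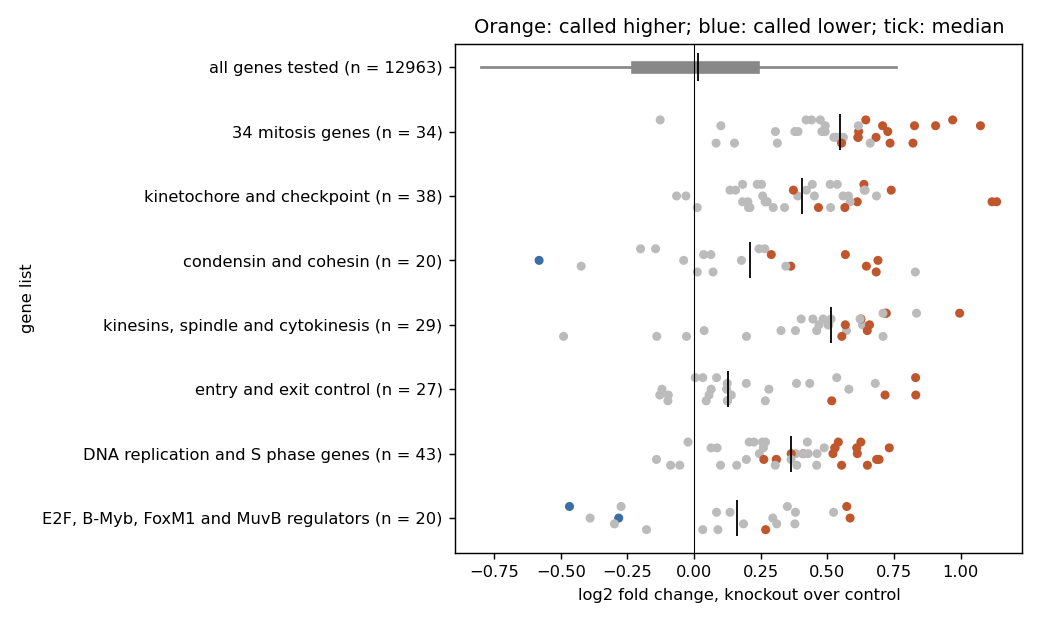
Log2 fold change of the 34 genes and of 6 other cell cycle lists (points: genes; tick: median; orange and blue: called higher and lower), with the median, middle 50% and middle 90% of all genes tested as bars. The median of the 34 genes is 0.55, that of the kinesin, spindle and cytokinesis list 0.51 and that of all genes 0.01.

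Genes of DNA replication, the step before mitosis, rose in 16 of 43 cases (median log2 fold change 0.36), and 0 fell by limma (0 at an unadjusted p under 0.05), edgeR or DESeq2. The helicase subunits Mcm6, Mcm7 and Mcm5 rose by 0.63, 0.55 and 0.73. Of 20 regulators of the E2F, B-Myb, FoxM1 and MuvB group 3 rose (Rbl2 by 0.58, Lin37 by 0.57 and Rbbp4 by 0.27) and 2 fell, counts near the 10.4% and 11.3% of all genes tested. As background, Rbl2, Lin37 and Rbbp4 are known as members of a complex that represses such promoters in resting cells. The 2 that fell were Rb1, the retinoblastoma protein gene (log2 fold change -0.47, SE 0.10, adjusted p = 0.0143), and E2f3, with -0.28 (SE 0.09, adjusted p = 0.0446). Foxm1 and Mybl2, the activators of mitotic promoters, did not pass (log2 fold change 0.52 and 0.38, adjusted p = 0.123 and 0.0893) and were named after their values were seen. Over all 6 lists 45 of 177 genes rose (25.4%), where 10.4% of all genes did. The count was 81 without knockout replicate 1, 8 without knockout replicate 2 and 19 without knockout replicate 3. In these 3 fits 9.05%, 5.35% and 7.93% of all genes rose. Without knockout replicate 2 the share, 8 of 177, was thus not above that of all genes. The count was 19, 24 and 23 without control replicates 2, 3 and 4, where 6.89%, 8.5% and 6.9% of all genes rose.

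Markers of several other cell types differed between the genotypes and between single libraries. Over all genes tested 10.4% rose and 11.3% fell, the shares beside each count of markers here. Of 24 natural killer cell markers (highest mean level: Gzma and Il2rb) 23 rose, and their summed normalized count was 21592 to 30207 in controls and 75572 to 81744 in knockouts, with no overlap. Of 16 neutrophil markers (highest: Lcn2 and S100a8) 8 rose, and the sum was 33578 to 44451 in controls, 134268 in knockout replicate 1 and 49995 and 54307 in knockout replicates 2 and 3. Of 8 erythroid markers (highest: Hbb-bs and Hba-a1) 0 passed (limma, edgeR and DESeq2; 0 at an unadjusted p under 0.05 by limma), and the sum was 1753 to 26833 in controls, 137292 in knockout replicate 1 and 11138 and 7499.8 in the others. Knockout replicate 1, lowest of the knockouts for 33 mitosis genes, was thus the library with the most neutrophil and erythroid transcript. Of 22 monocyte and recruited macrophage markers (highest: Fn1 and Csf1r) 13 fell and 3 rose, with sums of 96845 to 126169 in controls and 64169 to 86139 in knockouts.

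Of 21 resident alveolar macrophage markers (highest: Chil3 and Lpl) 1 fell (sums 80121 to 129101 and 93921 to 162262), where 11.3% of all genes tested fell and 10.4% rose. Of 20 T cell markers 5 rose (Cd247, Trbc1, Cd28, Thy1 and Lck) and 1 fell (Il7r), with sums of 14569 to 16413 and 15664 to 20703. The T cell receptor genes Cd3d, Cd3e, Cd3g, Trac and Trbc2 did not pass (log2 fold changes -0.08, -0.17, -0.22, 0.01 and 0.27). Of 13 dendritic cell markers 4 rose and 1 fell (sums 3844 to 4626 and 4794 to 7356), and of 14 epithelial markers 9 rose (sums 959 to 1134 and 1529 to 2200). Of 6 tested B and plasma cell markers 1 rose and 1 fell (sums 658 to 905 and 659 to 1069), counts too small to set apart from the shares of all genes. Of the neutrophil precursor markers 1 could be tested, Cebpe, which did not pass (adjusted p = 0.131), and the summed count was 16.8 to 35.1 in controls and 18.1 to 50.7 in knockouts, while Mpo and Elane were not analysed here. The part of these cells in the level of the mitosis genes was not tested. When the mean log2 level of the neutrophil markers was added to the fit, 25 of the 34 genes rose, 13 of them among the 14, where 4.64% of all genes rose. When that of the natural killer markers was added, which does not overlap between the groups, limma called 0 (16 at an unadjusted p under 0.05), and 1 of all 12963 genes passed.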

How the data were processed

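Messenger RNA from lavage cells was measured in 7 libraries, 4 control and 3 knockout by their titles. The authors deposited 1 table whose value columns are a signal, that is gene reads scaled by 1 factor for each library. Cutadapt 1.15, STAR 2.5.3a, HTSeq and DESeq2 are named in the submitters' processing notes with GRCm38 (mm10). Strand setting, annotation and other versions are not stated there. Per the file headers the authors also gave, for each gene, p-values (raw and adjusted), a log2 fold change with its error, and a statistic, which is a score. All values (100%) were whole multiples of 1 step per library within 0.01, so reads were recovered by division. Totals were 9903284 to 13353733 reads, and 3 reads, the limit that a count of 0 allows, equal 2.65 to 3.76 normalized counts.

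limma 3.58.1 in R 4.3.3 (eBayes with trend) was fitted to log2(normalized count + 1) of the 12963 genes with a mean of at least 10, with Benjamini-Hochberg adjustment over all of them and a threshold of 0.05. Fold changes on that scale understate low genes. The alternatives were other scalings, pseudocounts (0.5 and 5) and filters (none and 50), edgeR 4.0.16, DESeq2 1.42.0 and limma-voom on recovered reads, no trend, replicate blocks, cell scores as covariates and libraries left out. The members, lists and alternatives were chosen with earlier results of these data known. Values in every library are given for the genes called, for Mki67, Top2a and Incenp and for the 4 lowest log2 fold changes; of other lists the 3 genes with the smallest p in each direction are named. Positions and exon lengths are from GENCODE M21 (GRCm38), which matched 99.81% of identifiers. Libraries of a group differed by a chi-square per gene of 8.51 to 35.5, so none was a copy. The closest controls were replicates 1 and 4 (8.51) and replicates 2 and 3 (12.1), the same pairs as by Lyz2. Other pairs of controls were at 18.2 to 31.7. Knockout replicates 2 and 3 were at 9.23, and knockout replicate 1 was at 33.9 and 35.5 from them. The pipeline was tested on simulated data.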

Additional observations from a re-analysis of the deposited data

Results flagged for a closer look

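For 3 of the 34 genes control replicate 1 stood far above the other 3 controls, by a gap that was a larger part of the group's range than Dixon's 95% limit of 0.829. The normalized count there was 255 for Cdk1, against 147 to 163 in the other controls, 818 for Bub1b, against 633 to 657, and 311 for Prc1, against 219 to 227. Chance marks about 1 group in 20, and the 34 genes share the same libraries.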

How the results depend on the processing

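The number of mitosis genes that rose, 14, stayed within 1.5 times under other scalings, pseudocounts and filters (14 in each), edgeR, DESeq2, the removal of the length trend and a block by the numbers in the descriptions. It was 27 with limma-voom and library weights, 8 without the trend, 25 with the neutrophil score and 0 with the natural killer score as a covariate, 7 without both control replicates 1 and 4, 3 without both control replicates 2 and 3, 30 without both control replicate 1 and knockout replicate 1, and 4 to 26 with 1 library left out. No mitosis gene fell under any of these alternatives, and 0 had an unadjusted p under 0.05 on the lower side. The median log2 fold change moved beyond the spread between libraries with the neutrophil score (0.97), with the natural killer score (1.55) and without both control replicate 1 and knockout replicate 1 (0.86). The natural killer score does not overlap between the groups, so a fit that holds it cannot separate it from genotype. Its 0 calls and its median of 1.55 therefore decide nothing about the mitosis genes. Of the 45 other cell cycle genes that rose, the count was 90 with limma-voom, 0 with the natural killer score, 12 without both control replicates 1 and 4, 6 without both 2 and 3, 88 without both control replicate 1 and knockout replicate 1, and 8 to 81 with 1 library left out. Of all genes, 13% rose with limma-voom and 9.47% without both control replicate 1 and knockout replicate 1. Without both control replicates 1 and 4 it was 4.8%, and without both 2 and 3 it was 4.74%. The share of other cell cycle genes without both 2 and 3 was thus not above that of all genes. The 3 other cell cycle genes that fell were 0 with the neutrophil score and 0 with the natural killer score. They were 0 without both control replicates 1 and 4, and 1 to 3 with 1 library left out. The cause of these shifts was not tested, except that fits with fewer libraries have less to estimate the spread from. From 150 bases before the start, the shares of mitosis promoters with each motif were the same, and those of all promoters were lower (CHR 12.04%, CCAAT 28.6% and E2F 1.66%).

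Replicate numbers in the titles are shared between groups, but same-numbered libraries did not deviate together (correlations -0.23, -0.03 and -0.19 by title, and -0.08, -0.29 and 0.08 by the numbers in the descriptions), and not every knockout correlated best with its own number. With the title numbers as a block 1 of 34 mitosis genes and 3 of 177 other cell cycle genes rose and 0 fell, where 3.27% of all genes rose, so neither share was above that of all genes. With the description numbers as a block 10 and 17 rose, where 4.56% of all genes did. Ttk, the lowest of the 34 genes in mean level, stood at 42.6 to 105 normalized counts, and the part of depth in its result was not tested.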
